A study of Mus musculus with 20 samples.

Results

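The comparison described here set the 4 FAP libraries from DKO muscle against the 4 Misc libraries from DKO muscle, across all genes. These 8 of the 20 libraries of the series were chosen by their titles and not by any measured value. The question was which differences between the 2 populations remained in the muscle of DKO mice and which were smaller there than in WT muscle, so the 4 FAP and 4 Misc libraries from WT muscle served as the comparison.

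FAP is the usual abbreviation of fibro/adipogenic progenitor, a mesenchymal cell of the space between muscle fibres that carries the PDGF receptor alpha and Sca-1 (encoded by Ly6a) and can give rise to fibroblasts and adipocytes. In healthy muscle these cells lay down basement membrane and loose connective tissue, and in injured or degenerating muscle they are a known source of fibrotic matrix. The fibroblasts of tendon and of the tendon-like ends of muscle are known by the transcription factors scleraxis (Scx) and mohawk (Mkx), by the membrane protein tenomodulin (Tnmd), and by a dense matrix of type I collagen with fibromodulin and thrombospondins. Misc is the submitters' own word in the sample labels and names no cell type. The series design text lists FB beside FAP and SMP and does not mention Misc, and no source used here ties the 2 names together.

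The series measured RNA of cells from mouse gastrocnemius, quadriceps and tibialis anterior, in FAP, Misc and a population labelled SMP, each from DKO and from WT muscle, and its title places the study in muscle fibrosis. The labels do not spell out DKO or name a deleted gene, so no targeted gene could be checked. Des, which encodes the muscle intermediate filament desmin, had 5.04, 5.33, 4.36 and 3.43 counts per 1e6 (CPM) in the FAP DKO libraries, against 14.2, 18.3, 16.5 and 14.3 CPM in the FAP WT libraries. Its level was 1.37, 2.27, 1.56 and 1.42 CPM in Misc DKO, against 4.66, 3.94, 4.74 and 2.16 CPM in Misc WT. The FAP groups did not overlap, and in Misc only DKO 2 lay above a WT library, WT 4. The log2 change of DKO over WT was -1.81 in FAP (adjusted p = 2.65e-07, edgeR quasi-likelihood test) and -1.25 in Misc (adjusted p = 0.000943). Syne1, which encodes the nuclear envelope protein nesprin-1, was likewise looked at because no deleted gene is named. It had 45.4, 37.8, 42.7 and 55.3 CPM in FAP DKO, against 59.8, 55.8, 52.7 and 57.1 CPM in FAP WT, and these overlapped (log2 -0.31, adjusted p = 0.115). In Misc it had 67.1, 62.1, 59.2 and 75.5 CPM in DKO, against 129.8, 91.8, 116.8 and 85.5 CPM in WT, with no overlap (log2 -0.69, adjusted p = 0.000282). The submitters call the replicates biological, but nothing states separate animals, nor strain, age or how the populations were sorted; p-values therefore measure the spread between these libraries.

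The 8 DKO libraries held 6739010 to 11039053 counts in FAP and 8360658 to 8492813 in Misc; the WT libraries held 10464761 to 13042515 in FAP and 9566333 to 17730111 in Misc. Pairs of libraries within a DKO group correlated at 0.979 to 0.985 in FAP and 0.977 to 0.983 in Misc (Pearson's r over log2 CPM of the genes tested). FAP and Misc libraries separated along the first principal component, which held 58.4% of the variance, and DKO and WT along the second, with 14%. Among the DKO libraries, those of replicate number 3 stood apart by sex-linked genes. Ddx3y, on the Y chromosome, had 144 CPM in FAP DKO 3 and 89.6 CPM in Misc DKO 3 and at most 0.313 CPM in the other DKO libraries, whereas Xist had 0.387 and 0.359 CPM in those libraries and at least 374 CPM in the others. All 8 WT libraries held both RNAs, Xist at 47 to 229.5 CPM and Ddx3y at 66 to 124 CPM. The makeup by sex therefore differed between DKO and WT libraries, and its part in the comparison of the genotypes was not tested. Without both DKO libraries of number 3, 3485 genes were called between FAP DKO and Misc DKO, 1879 higher in FAP and 1606 in Misc. Values without them are given below for some of the calls and counts that changed.

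Across 14179 genes tested, 4213 (29.7%) differed between FAP DKO and Misc DKO at an adjusted p below 0.05. Of these, 2269 (16.0%) were higher in FAP and 1944 (13.7%) higher in Misc. A difference of at least 2-fold was called for 970 genes in the direction of FAP and 894 in that of Misc, and one of at least 16-fold for 76 and 129. The FAP and Misc libraries did not overlap for 3937 genes (27.8%). Over all genes tested the median log2 difference of FAP over Misc was -0.02 and the median absolute difference 0.28, the background against which the gene lists below are read. RNA from these populations was measured in bulk, so fewer cells of a type and less RNA per cell cannot be told apart.

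Ly6a had 527, 432, 453 and 526 CPM in FAP DKO, against 7.96, 5.63, 3.71 and 5.18 CPM in Misc DKO. The groups were far apart, with a mean of 484 ± 49.8 CPM in FAP and 5.62 ± 1.76 CPM in Misc (SD, n = 4 each), an 86.1-fold difference (log2 6.43 ± 0.64 SE, adjusted p = 1.28e-06). Ly6a lies at chr15:74994877-74998031 of GRCm38, and its known use as a sorting marker of FAPs is a reason to read it as a check of the label rather than as a finding.

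Cd248 (chr19:5068078-5070640), which encodes the stromal membrane protein endosialin, had 364, 313, 346 and 331 CPM in FAP DKO and 20.2, 10.1, 10.8 and 11 CPM in Misc DKO. Every FAP library was well above every Misc library, and the difference was 26.0-fold (log2 4.70 ± 0.39, adjusted p = 1.15e-07). In WT muscle it was 76.1-fold, with 526, 449, 439 and 498 CPM in FAP and 6.6, 4.81, 6.92 and 6.81 CPM in Misc. The smaller difference in DKO (log2 -1.55 ± 0.52) did not pass across all genes (adjusted p = 0.167) and passed with the replicate number as a block (-1.51, adjusted p = 3.66e-06), a fit described with the scale of these results below.

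Tendon genes were higher in Misc DKO. Tnmd (chrX:133851008-133865577) had 81.2, 43.2, 40.2 and 67.5 CPM in FAP DKO and 2138, 1744, 1930 and 2100 CPM in Misc DKO, a 34.0-fold difference (log2 -5.09 ± 0.24, adjusted p = 1.43e-12). Scx (chr15:76457411-76459468) had 1.77, 4.7, 2.03 and 2.06 CPM in FAP DKO and 138, 93, 143 and 97.6 CPM in Misc DKO, a 47.7-fold difference (log2 -5.57 ± 0.21, adjusted p = 7.11e-15). All 4 FAP libraries lay below all 4 Misc libraries for both genes. Mkx, another tendon regulator, had 2.52, 0.94, 1.65 and 1.27 CPM in FAP DKO and 123, 114, 113 and 104 CPM in Misc DKO (log2 -6.08 ± 0.18, adjusted p = 8.92e-18).

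**Figure D1:**
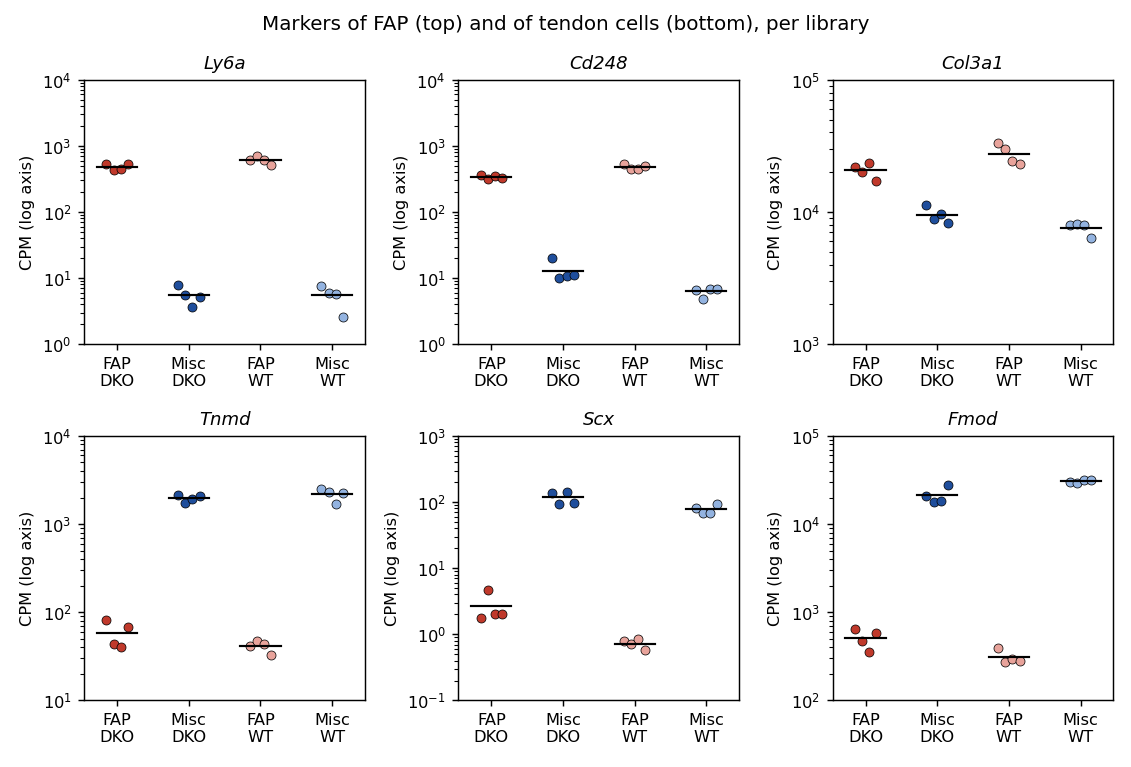
Levels of Ly6a, Cd248, Col3a1, Tnmd, Scx and Fmod in each library, in CPM on a log axis, for FAP DKO, Misc DKO, FAP WT and Misc WT; points are libraries and black lines are group means (n = 4 each). Ly6a, Cd248 and Col3a1 are higher in FAP and Tnmd, Scx and Fmod higher in Misc, with no overlap between FAP DKO and Misc DKO.

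Of 22 FAP markers tested, 18 were higher in FAP DKO, 0 in Misc DKO and 4 (Dpp4, Twist2, Cxcl14 and Lum) did not pass, with a median log2 difference of 1.64. In WT muscle 16 were higher in FAP and 1 in Misc, with a median of 2.00. The difference of differences, the test described below of whether DKO and WT differ in the size of the FAP-Misc difference, passed for 4 (Pi16, Dpt and Mfap5 with a smaller difference in DKO, Col15a1 with a larger one). That count was 8 with the replicate block, 7 with only the compared groups in the fit or with counts thinned to the smallest library, 2 without both DKO libraries of number 3 and 1 without all libraries of number 1. Procr, the endothelial protein C receptor found on several mesenchymal progenitors, had 297, 358, 357 and 299 CPM in FAP DKO and 37, 33.3, 22.3 and 26.9 CPM in Misc DKO (log2 3.45 ± 0.31, adjusted p = 2.33e-07). Pdgfra, the defining receptor of FAPs, was present on both sides, at 1067, 935, 1192 and 1008 CPM in FAP DKO and 351, 352, 399.7 and 291 CPM in Misc DKO. The groups did not overlap, but the log2 difference of 1.59 ± 0.40 (adjusted p = 0.0064) was modest beside that of Ly6a, and with all libraries of number 1 left out its adjusted p was 0.0576.

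Of 15 tendon cell markers tested, 13 were higher in Misc DKO, 1 (Tppp3) in FAP DKO and 1 (Prg4) did not pass, with a median log2 difference of -5.57 and of -6.30 in WT. Of the 15, the difference of differences passed for 3 (Thbs4, Ptx4 and Tppp3, each smaller in DKO), for 6 in the DESeq2 Wald test, with only the compared groups in the fit or with thinned counts, and for 10 with the block. Fmod, which encodes a proteoglycan that binds type I collagen fibrils, had 650.4, 474, 352 and 581 CPM in FAP DKO and 20629, 17786, 18372 and 27691 CPM in Misc DKO. The groups were far apart, and Fmod was 41.1-fold lower in FAP (log2 -5.36 ± 0.32, adjusted p = 1.5e-10). Its difference was smaller in DKO than in WT by 1.26 ± 0.38 on the log2 scale, which missed the threshold (adjusted p = 0.0925) and passed with the replicate block (1.28, adjusted p = 7.11e-06) and without FAP DKO 3 (1.41, adjusted p = 0.0483). Of 14 cartilage genes tested, 8 were higher in Misc DKO and 1 (Sox5) in FAP DKO, with a median of -3.10, or -2.26 when Ibsp, which had no count in any FAP DKO library, is set at the bound that 3 counts per library allow.

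The 12 largest differences toward FAP DKO, among genes with a mean of at least 5 CPM and no predicted genes, held 3 members of the Ly6 family. Ly6c1 had 329, 290.5, 283 and 358 CPM in FAP DKO and 2.99, 3.59, 3.12 and 1.55 CPM in Misc DKO (log2 6.79 ± 0.64, adjusted p = 7.59e-07). Ly6c2, at 21.3, 14.6, 9.97 and 21.2 CPM in FAP DKO and at most 0.239 CPM in Misc DKO, is a near-identical neighbour, and reads may have been split between the pair. Adamts16, which encodes a secreted metalloprotease, had 29.1, 9.71, 14.2 and 17.3 CPM in FAP DKO and at most 0.373 CPM in Misc DKO (log2 6.50 ± 0.51, adjusted p = 4.15e-09).

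Others of those 12 were Duoxa1, the maturation factor of a peroxide-making oxidase, at 15.2 to 25.4 CPM in FAP DKO and 0.239 to 0.259 CPM in Misc DKO, and Cadm3, an adhesion molecule, at 269.7 to 312 and 2.46 to 8.62 CPM in the same groups. The serpin gene Serpina3c had 8.23 to 12.5 CPM in FAP DKO and at most 0.359 CPM in Misc DKO. Mrgprg, an orphan receptor gene, had 21.5, 43.7, 4.55 and 16.2 CPM in FAP DKO and a signal in a single Misc DKO library, at 0.239 CPM, so no fold is given. Wnt10b, a Wnt ligand known to restrain adipocyte formation, had 24.2, 14.3, 15 and 12.7 CPM in FAP DKO and 0.124, 0.359, 0.12 and 0.13 CPM in Misc DKO (log2 6.40 ± 0.48, adjusted p = 1.03e-08). It had no count in any Misc WT library. Cmah, Smpd3 and Stmn4 complete the 12, with log2 differences of 6.22, 5.63 and 5.39.

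The 12 largest differences toward Misc DKO held 4 collagen genes (Col2a1, Col22a1, Col11a2 and Col24a1). Matn3, which encodes the cartilage linker matrilin, had 0.28, 0, 0.387 and 0 CPM in FAP DKO and 17.9, 20.6, 20.4 and 24.2 CPM in Misc DKO (log2 -6.71 ± 0.45, adjusted p = 3.71e-10). Col2a1, the main collagen of cartilage, had 3.08, 0.627, 0.678 and 1.08 CPM in FAP DKO and 245, 92, 68.7 and 153 CPM in Misc DKO (log2 -6.58 ± 0.52, adjusted p = 8.03e-08). Misc DKO 1 was highest for it, and the Misc libraries differed more than 3-fold among themselves without reaching the FAP range. Col22a1, a collagen of the junction between muscle and tendon, had 14.6, 9.71, 5.52 and 8.03 CPM in FAP DKO and 916, 747, 759.9 and 956 CPM in Misc DKO (log2 -6.47 ± 0.34, adjusted p = 1.85e-10).

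Mstn, which encodes the muscle growth inhibitor myostatin, had 0.746, 0.313, 0.29 and 1.08 CPM in FAP DKO and 37.5, 36.2, 46.1 and 49.3 CPM in Misc DKO (log2 -6.03 ± 0.37, adjusted p = 6.44e-11). Chodl, encoding the lectin chondrolectin, had 20.5, 18.3, 11.2 and 22.2 CPM in FAP DKO and 1006, 1030, 1108 and 1234 CPM in Misc DKO (log2 -5.92 ± 0.24, adjusted p = 1.13e-13). Col11a2 and Col24a1, both fibrillar collagens, were lower in FAP DKO by 6.29 and 5.98 on the log2 scale, and Insc, Lpar3, Kirrel3, Ptx4 and Mkx by 5.99 to 6.51. All 24 of these genes were called in the same direction in WT muscle. Of the 24, 1 (Ptx4) was called for a different size of difference in DKO and WT (log2 1.04, adjusted p = 0.0404), or 6 with the replicate block; the adjusted p of Ptx4 was 0.0542 to 0.131 in 9 of the fits that left out 1 library.

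Over all genes, 3275 were called in the same direction in DKO and in WT, which was 77.7% of the 4213 DKO calls and 62.6% of the 5229 WT calls (36.9% of genes tested). Of these, 1762 were higher in FAP and 1513 in Misc. Calls in opposite directions were made for 19 genes, in DKO alone for 919 and in WT alone for 1935. The difference of differences passed for 62 of the 919 and 100 of the 1935. A call in a single genotype is therefore not by itself a changed difference. With the 16 FAP and Misc libraries alone in the fit and counts thinned to the smallest of them, 4118 genes were called in DKO and 4817 in WT. The difference of differences then passed for 477 genes, against 590 with the same libraries and all counts. Of the 270 genes with a WT difference of at least 16-fold, 253 were also called in the same direction in DKO. The standard deviation of the log2 difference over all genes was 1.07 in DKO and 1.16 in WT.

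Whether the size of a difference itself differed between the genotypes was tested as log2 FAP over Misc in DKO minus the same in WT, called the difference of differences here. It passed for 396 genes (2.79%). Of these, 278 (1.96%) had a smaller FAP-Misc difference in DKO and are called narrowed, and 99 (0.698%) a larger one and are called widened. The other 19 (0.134%) were called in both genotypes with opposite signs and are called turned. Size is the absolute log2 difference, so a narrowed or widened gene can have opposite order in DKO and WT where not both were called. With libraries of equal replicate number treated as pairs in a block, these counts were 1246, 781, 395 and 70, and 394 of the 396 genes were among the 1246. Without both DKO libraries of number 3 the difference of differences passed for 290 genes (201 narrowed, 76 widened and 13 turned). Without all FAP and Misc libraries of number 1 it passed for 246 (166 narrowed, 70 widened and 10 turned). Of the 278 narrowed genes, 178 were still called in DKO in the same direction as in WT.

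**Figure D2:**
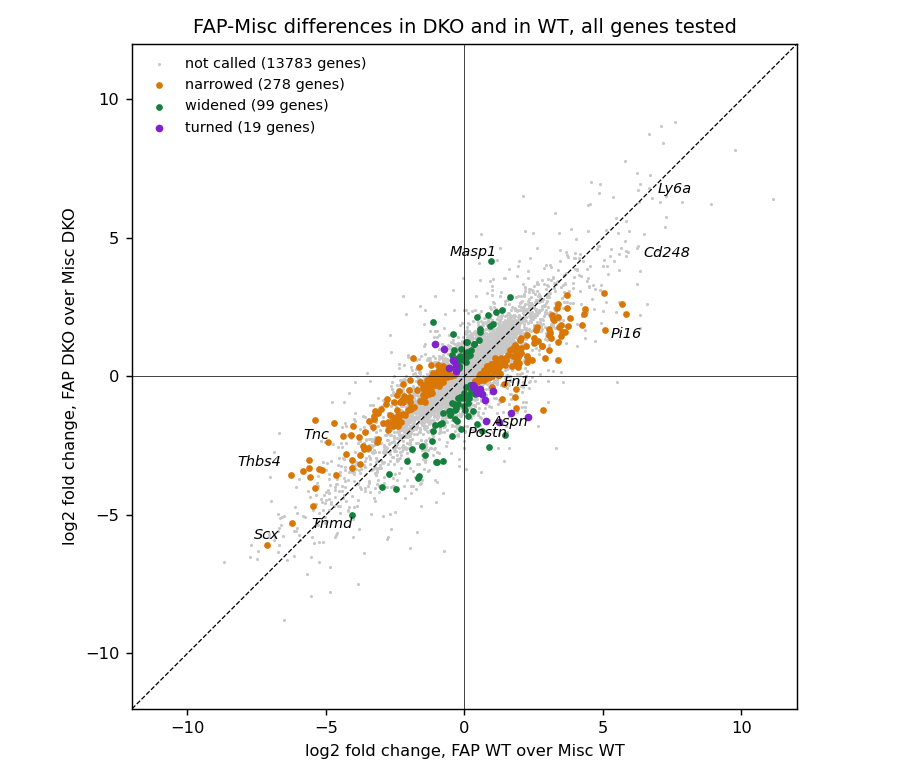
Log2 difference of FAP over Misc in DKO (vertical axis) against that in WT (horizontal axis) for the 14179 genes tested; colours mark 278 narrowed, 99 widened and 19 turned genes and the 13783 with no call, and the dashed line marks equal differences. Most genes lie along the line, narrowed genes lie nearer to 0 in DKO than in WT, and Pi16, Thbs4 and Tnc are among those furthest from it.

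The narrowed genes fell into 134 that were higher in FAP WT and 144 that were higher in Misc WT. For the 134, the median log2 difference of FAP over Misc was 0.49 in DKO and 1.53 in WT. Among them, 102 were higher in Misc DKO than in Misc WT at an adjusted p below 0.05, and 38 were lower in FAP DKO than in FAP WT. For the 144, the median was -0.86 in DKO and -2.03 in WT. Of these, 74 were higher in FAP DKO than in FAP WT and 80 were lower in Misc DKO than in Misc WT. These counts describe which population differed by genotype among genes that the test itself selected.

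Pi16, which encodes a peptidase inhibitor that marks a progenitor-like fibroblast of the fascia in mouse tissues, was the narrowed gene with the largest difference of differences among those with a symbol, a mean of at least 5 CPM over the 16 libraries and no predicted status. It had 1235, 919, 804 and 999 CPM in FAP DKO and 327, 281, 248 and 368 CPM in Misc DKO. In WT muscle it had 1375, 1317, 1748 and 1432 CPM in FAP and 40.1, 28.9, 44 and 61.4 CPM in Misc. The FAP and Misc libraries did not overlap in either genotype, but the difference was 3.23-fold in DKO and 33.8-fold in WT, with each Misc DKO library several times above each Misc WT library. The difference of differences was -3.39 ± 0.68 on the log2 scale (adjusted p = 0.0133); without all libraries of number 1 it was -3.44 with an adjusted p of 0.113, and the DKO difference of 1.61 then had an adjusted p of 0.0997.

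Dpt, encoding the collagen-binding protein dermatopontin, had 2140, 1948, 1749 and 2097 CPM in FAP DKO and 557, 553, 606 and 585 CPM in Misc DKO. Its WT levels were 1889, 2074, 1948 and 1660 CPM in FAP and 279, 376, 294 and 290.4 CPM in Misc. FAP levels overlapped between the genotypes, whereas every Misc DKO library was above every Misc WT library. The difference of differences was -0.83 ± 0.18 (adjusted p = 0.0105), with an adjusted p of 0.0543 without both DKO libraries of number 3 and of 0.0706 without all of number 1. Mfap5, a microfibril protein, was likewise narrowed at 1.39 ± 0.31 in DKO and 3.13 ± 0.33 in WT (adjusted p of the difference of differences = 0.042), and its adjusted p was 0.0607 to 0.0993 with each of the 16 FAP and Misc libraries left out in turn and 0.142 without both DKO libraries of number 3.

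The 250 bases before the start of Pi16, Dpt, Tnmd and Thbs4 are shown because these genes carry both sides of the contrast and its narrowing, and because scleraxis belongs to the bHLH factors, which bind the E-box CANNTG. They are from RefSeq's promoter table for GRCm38.p6; the Pi16 window (chr17:29318632-29318881, plus strand) overlaps the start of the gene record, and the others are chr1:164796413-164796662 (Dpt, plus), chrX:133850758-133851007 (Tnmd, plus) and chr13:92794819-92795068 (Thbs4, minus). Capitals mark CANNTG, which reads the same motif on both strands.
Pi16: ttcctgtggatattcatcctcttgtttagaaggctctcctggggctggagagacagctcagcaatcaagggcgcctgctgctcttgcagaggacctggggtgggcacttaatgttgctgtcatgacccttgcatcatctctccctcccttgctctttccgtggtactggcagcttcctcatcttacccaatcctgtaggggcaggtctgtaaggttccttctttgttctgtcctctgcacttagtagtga
Dpt: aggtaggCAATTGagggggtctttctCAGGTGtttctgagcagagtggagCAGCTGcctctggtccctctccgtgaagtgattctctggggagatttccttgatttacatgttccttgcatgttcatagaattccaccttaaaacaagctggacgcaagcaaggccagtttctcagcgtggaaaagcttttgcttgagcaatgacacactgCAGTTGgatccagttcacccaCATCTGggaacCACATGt
Tnmd: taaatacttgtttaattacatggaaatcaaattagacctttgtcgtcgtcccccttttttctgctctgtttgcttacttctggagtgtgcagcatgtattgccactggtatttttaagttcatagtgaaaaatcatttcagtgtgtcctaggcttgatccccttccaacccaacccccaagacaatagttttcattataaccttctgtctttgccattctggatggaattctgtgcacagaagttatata
Thbs4: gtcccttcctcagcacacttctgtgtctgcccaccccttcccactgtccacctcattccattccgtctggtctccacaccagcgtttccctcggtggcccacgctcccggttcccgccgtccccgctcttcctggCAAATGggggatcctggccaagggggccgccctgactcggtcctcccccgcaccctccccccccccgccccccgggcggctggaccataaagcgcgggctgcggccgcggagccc
CANNTG was found 6 times in the Dpt window, 1 time in that of Thbs4, and not in those of Pi16 and Tnmd. Of 32851 windows of this length in the table, 66.2% held it at least 1 time, so these matches are a description of the letters.

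Islr2, which encodes a membrane protein of the leucine-rich repeat family, had 42.5, 47.9, 44.3 and 35 CPM in FAP DKO and 5.1, 6.58, 9.59 and 6.22 CPM in Misc DKO. The WT libraries had 67.4, 64.1, 68.2 and 62.6 CPM in FAP and 1.24, 1.66, 1.18 and 0.908 CPM in Misc. FAP DKO was below FAP WT and Misc DKO above Misc WT in every library, and the difference was 6.14-fold in DKO and 51.2-fold in WT (difference of differences -3.06 ± 0.29, adjusted p = 1.09e-06).

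Some FAP-side differences of WT muscle were not called in DKO. Fn1, encoding fibronectin, the matrix glycoprotein on which collagen fibrils assemble, had 6823, 6918, 5619 and 6899 CPM in FAP DKO and 5832, 6751, 5476 and 7400 CPM in Misc DKO. The DKO groups overlapped (log2 0.04 ± 0.13, adjusted p = 0.849). In WT, FAP had 6711, 5619, 6496 and 5673 CPM and Misc 2819, 2384, 2671 and 2767 CPM, and the difference of differences was -1.16 ± 0.19 (adjusted p = 0.000802).

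Fmo2, a flavin monooxygenase gene, had 63 ± 16 CPM in FAP DKO and 41.6 ± 11.1 CPM in Misc DKO. FAP WT had 67.5 ± 9.39 CPM and Misc WT had 6.58 ± 1.1 CPM (SD, n = 4 each). Its DKO difference of 0.60 ± 0.25 missed the threshold (adjusted p = 0.0869) and passed with the block (0.61, adjusted p = 0.00109).

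On the Misc side, Thbs4, encoding a thrombospondin of tendon and of the muscle-tendon junction, had 2677, 3231, 2565 and 4178 CPM in FAP DKO and 29314, 29579, 28368 and 39112 CPM in Misc DKO. Levels in WT were 368, 272, 318 and 362 CPM in FAP and 17292, 15190, 16947 and 15047 CPM in Misc. All FAP DKO libraries lay above all FAP WT libraries and below all Misc libraries, and the difference was 9.99-fold in DKO and 48.8-fold in WT (difference of differences 2.29 ± 0.24, adjusted p = 3.18e-06).

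Tnc, which encodes tenascin-C, a matrix glycoprotein of tendon and of healing tissue, had 177, 187, 137 and 186 CPM in FAP DKO and 1459, 1462, 1132 and 1529 CPM in Misc DKO. WT libraries had 42.4, 40.1, 32 and 39.7 CPM in FAP and 1978, 1766, 1790 and 1975 CPM in Misc. FAP was higher and Misc lower in DKO than in WT in every library, and the difference was 8.12-fold in DKO and 48.7-fold in WT (difference of differences 2.58 ± 0.17, adjusted p = 9.01e-10). Wisp1, a matricellular target of Wnt signalling, had 12.5 to 15.2 CPM in FAP DKO and 133 to 168 CPM in Misc DKO. The WT levels were 3.76 to 6.28 CPM in FAP and 149 to 224 CPM in Misc (difference of differences 1.91 ± 0.20, adjusted p = 5.25e-06).

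Ddah1, encoding an enzyme that breaks down methylated arginine, had 4.01, 3.29, 3.77 and 4.7 CPM in FAP DKO and 44.5, 52.6, 38.5 and 50.8 CPM in Misc DKO. WT levels were 0.393, 0.304, 0.167 and 0.381 CPM in FAP and 29.6, 26.1, 20.3 and 22.2 CPM in Misc. Both populations were higher in every DKO library than in the WT libraries of the same population. The FAP-Misc difference was 11.6-fold in DKO and 76.4-fold in WT (difference of differences 2.71 ± 0.34, adjusted p = 2.42e-05). C1qtnf3, Bmpr1b and Crtac1 were narrowed by 2.55, 2.23 and 2.41 on the log2 scale, Crtac1 with an adjusted p of 0.0542 without all libraries of number 1. Bmpr1b, a type I BMP receptor, differed in both populations, at 4.04 ± 0.824 CPM in FAP DKO and 18.5 ± 1.91 CPM in Misc DKO. In WT muscle FAP had 2.2 ± 0.724 CPM and Misc had 47 ± 3.57 CPM (SD, n = 4 each).

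**Figure D3:**
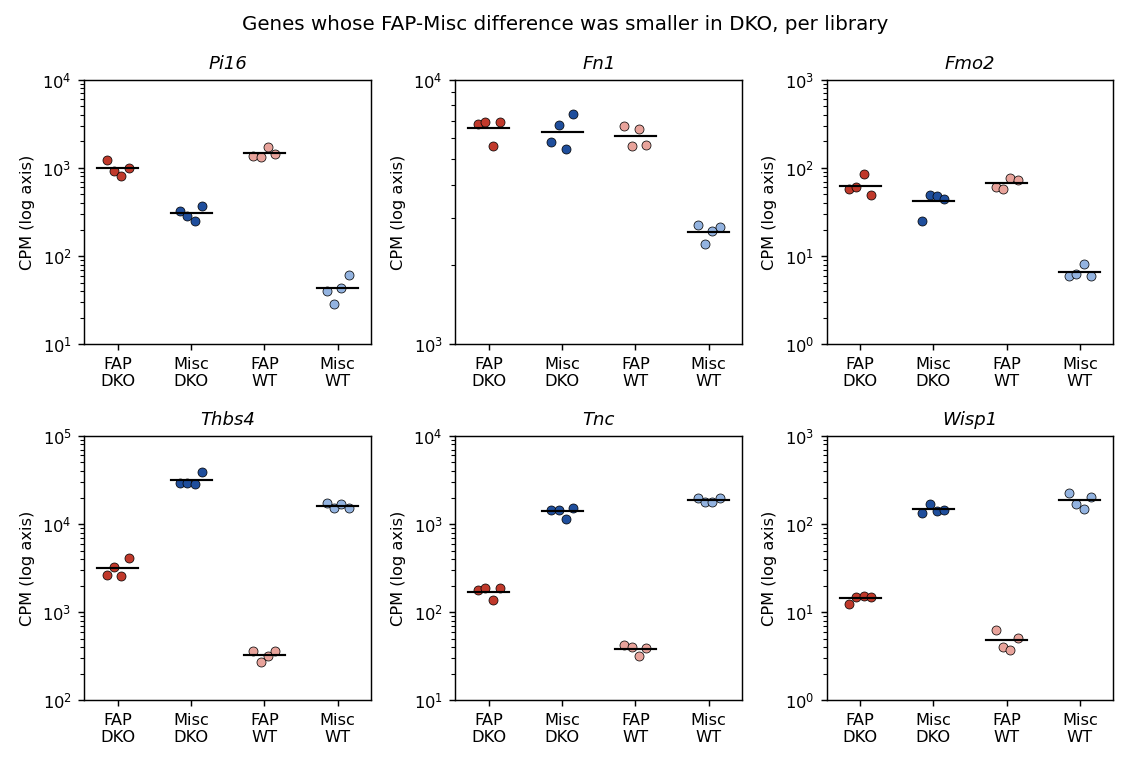
Levels of Pi16, Fn1, Fmo2, Thbs4, Tnc and Wisp1 in each library, in CPM on a log axis, for FAP DKO, Misc DKO, FAP WT and Misc WT; points are libraries and black lines are group means (n = 4 each). FAP and Misc lie closer together in DKO than in WT for each gene, and overlap in DKO for Fn1 and Fmo2.

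Among the 99 widened genes, 37 were called in both genotypes and 62 in DKO alone; 43 were higher in FAP DKO and 56 in Misc DKO. Postn, encoding periostin, a matricellular protein of fibrotic tissue, had 1837, 1721, 876 and 1945 CPM in FAP DKO and 4377, 6294, 5860 and 7075 CPM in Misc DKO. In WT it had 512, 517, 538 and 490.1 CPM in FAP and 675, 539.9, 428 and 599 CPM in Misc, and these WT groups overlapped. Both populations were higher in DKO, Misc by more, so that the difference was -1.89 ± 0.23 in DKO (adjusted p = 2.03e-06) and -0.12 ± 0.22 in WT (adjusted p = 0.713), with a difference of differences of -1.76 ± 0.32 (adjusted p = 0.00343).

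Frzb, an extracellular Wnt antagonist first known from cartilage, had 1.86, 1.72, 1.65 and 2.35 CPM in FAP DKO and 20.5, 6.35, 7.55 and 10.2 CPM in Misc DKO, and at most 1.49 CPM in any WT library. The DKO groups did not overlap, and Misc DKO 1 was highest (DKO difference -2.54 ± 0.37, adjusted p = 6.52e-06). The WT difference lay the other way, at 0.90 ± 0.50, and was not called (adjusted p = 0.171). Its difference of differences of -3.44 ± 0.62 (adjusted p = 0.00211) was -2.42 with an adjusted p of 0.0542 without all libraries of number 1. Masp1, encoding a protease of the lectin pathway of complement, had 6.71, 12.2, 10.5 and 11.2 CPM in FAP DKO and 0.747, 0.599, 0.24 and 0.647 CPM in Misc DKO. Levels were 1.81 to 4.17 CPM in FAP WT and 1.02 to 1.53 CPM in Misc WT (difference of differences 3.19 ± 0.62, adjusted p = 0.00437). Sned1, which encodes a matrix glycoprotein, had 63.2 to 101 CPM in FAP DKO and 14.6 to 18.9 CPM in Misc DKO. FAP WT had 50.2 to 74.2 CPM and Misc WT had 32.3 to 44.4 CPM (difference of differences 1.38 ± 0.24, adjusted p = 0.00176).

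Other widened genes named by size were Kcnab1, Prkg2, Rapgef4 and Gdf6. Kcnab1, a potassium channel subunit gene, had 0.839, 0.94, 2.32 and 0.686 CPM in FAP DKO and 8.96, 11.3, 11.4 and 9.19 CPM in Misc DKO, and FAP WT had 3.06 to 5.88 CPM and Misc WT 5.79 to 7.83 CPM. Prkg2, encoding a cGMP-dependent kinase, had 3.51 ± 0.928 CPM in FAP DKO and 11.5 ± 2.05 CPM in Misc DKO. The WT levels were 14 ± 3.35 CPM in FAP and 10.3 ± 1 CPM in Misc (SD, n = 4 each), so the order of the means was opposite to that in DKO. The difference of differences was -2.28 ± 0.38 for Kcnab1 (adjusted p = 0.000897) and -2.16 ± 0.28 for Prkg2 (adjusted p = 5.39e-05). Rapgef4, a cAMP-responsive exchange factor gene, was also widened, at -4.07 ± 0.25 in DKO and -2.47 ± 0.23 in WT (adjusted p = 0.0107). Gdf6, a BMP-family ligand gene, was widened toward FAP, at 7.89 ± 1.33 CPM in FAP DKO and 2.68 ± 1.3 CPM in Misc DKO. In WT muscle FAP had 5.1 ± 1.06 CPM and Misc had 6.73 ± 1.86 CPM (SD, n = 4 each), so its means also stood in the opposite order. The difference of differences of Gdf6 was 1.94 ± 0.37 (adjusted p = 0.00312).

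Of the 19 turned genes, 12 were higher in FAP WT and lower in FAP DKO than in the matching Misc group, and 7 the reverse. Aspn, encoding asporin, a small proteoglycan that binds collagen, had 608, 571, 619.7 and 736 CPM in FAP DKO and 1395, 2029, 2176 and 2098 CPM in Misc DKO. In WT it had 480.1, 473, 438 and 417 CPM in FAP and 327, 272, 252 and 208 CPM in Misc. The groups did not overlap in either genotype, and the order was opposite: -1.60 ± 0.21 in DKO (adjusted p = 6.12e-06) and 0.77 ± 0.21 in WT (adjusted p = 0.00649), with a difference of differences of -2.37 ± 0.30 (adjusted p = 0.000108). Myadm, a membrane protein gene, turned by less, with 345 to 391 CPM in FAP DKO and 455 to 619 CPM in Misc DKO. Levels were 362 to 473 CPM in FAP WT and 259 to 324 CPM in Misc WT (difference of differences, adjusted p = 0.000436). Pdxk, which encodes the kinase that activates vitamin B6, turned the other way, at 50.9 to 68.6 CPM in FAP DKO and 33.6 to 46.2 CPM in Misc DKO. FAP WT had 55 to 61.9 CPM and Misc WT had 71.1 to 83 CPM (difference of differences, adjusted p = 0.000991).

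**Figure D4:**
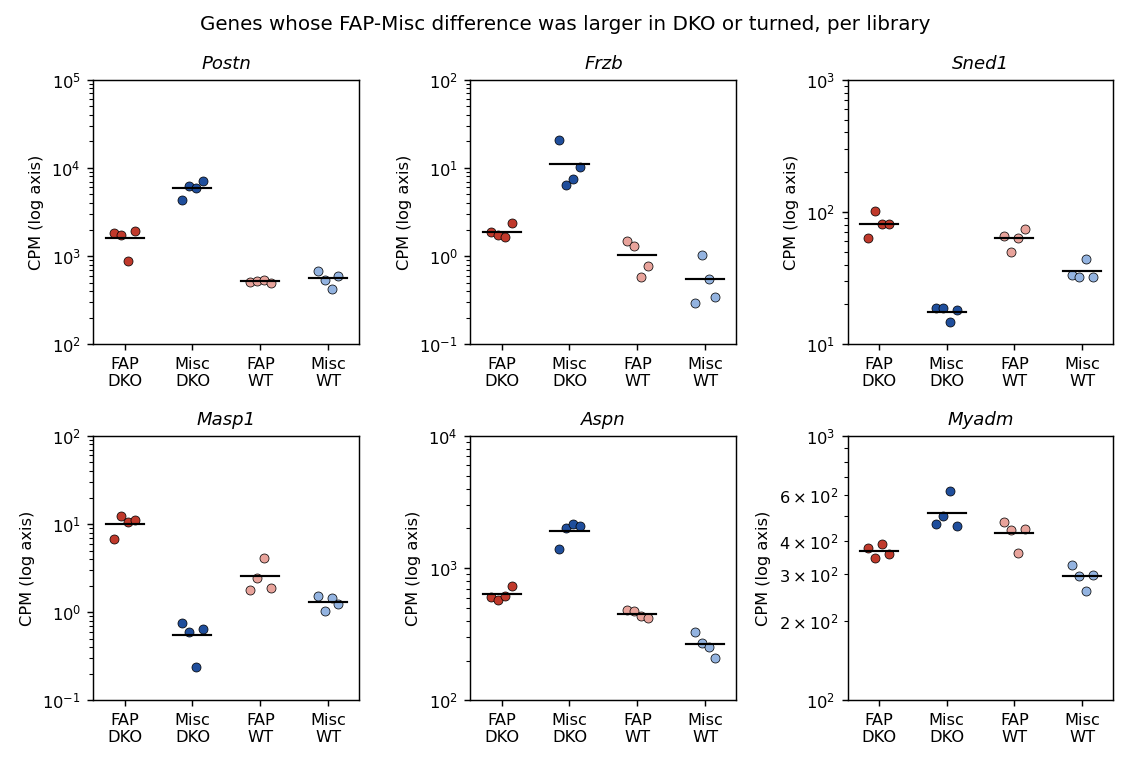
Levels of Postn, Frzb, Sned1, Masp1, Aspn and Myadm in each library, in CPM on a log axis, for FAP DKO, Misc DKO, FAP WT and Misc WT; points are libraries and black lines are group means (n = 4 each). FAP and Misc lie further apart in DKO than in WT for Postn, Frzb, Sned1 and Masp1, and their order is opposite in DKO and WT for Aspn and Myadm.

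Some types of matrix genes lay mostly on 1 side, and others were divided between the populations. Of 11 fibrillar collagens, 4 (Col3a1, Col5a1, Col5a3 and Col27a1) were higher in FAP DKO and 6 in Misc DKO. Col3a1, the thin-fibril collagen of loose tissue, had 21816, 19915, 23641 and 17066 CPM in FAP DKO and 11337, 8829, 9665 and 8198 CPM in Misc DKO (log2 1.12 ± 0.16, adjusted p = 4.73e-06). Col1a1, the main chain of tendon collagen, had 7576, 8903, 8383 and 6328 CPM in FAP DKO and 30513, 18834, 19400 and 26610 CPM in Misc DKO (log2 -1.61 ± 0.20, adjusted p = 9.07e-07). The pair thus stood in opposite order, with no overlap for either gene. The difference of differences was -0.74 for Col3a1 (adjusted p = 0.0843, and 0.000861 with the block) and 0.49 for Col1a1 (adjusted p = 0.516). It passed for 1 fibrillar collagen, Col5a1 (-0.91 ± 0.16, adjusted p = 0.00134), and for 6 with the block. The DKO difference of Col5a1 (0.33 ± 0.11, adjusted p = 0.0246) had an adjusted p of 0.0526 to 0.0926 without FAP DKO 1, 2 or 3 or Misc DKO 2 or 3, and of 0.115 without both DKO libraries of number 3.

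Of 23 basement membrane genes, 14 were higher in FAP DKO and 2 in Misc DKO (Lama3 and Col18a1), with a median log2 difference of 0.47. Col15a1, a collagen that anchors basement membranes, was widened, with 1749 to 1909 CPM in FAP DKO and 789.6 to 1181 CPM in Misc DKO. In WT muscle FAP had 1689 to 2341 CPM and Misc had 1688 to 2046 CPM (difference of differences 0.79 ± 0.18, adjusted p = 0.0135). Lama3, a laminin-332 chain, was lower in FAP DKO at 2.52 to 9.14 CPM than in Misc DKO at 18 to 34.7 CPM (adjusted p = 0.000134), and its smaller difference in DKO than in WT passed with the block (2.05, adjusted p = 5.06e-07) and without FAP DKO 3 (2.29, adjusted p = 0.0305) or both DKO libraries of number 3 (2.12, adjusted p = 0.0454). In this list 3 members passed the difference of differences, or 6 with the block.

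Of 22 other collagens tested, 3 were higher in FAP DKO and 9 in Misc DKO, with a median of -0.35, and 4 were narrowed (7 passed the difference of differences with the block). Col8a1, a short-chain collagen of vessels and of injured tissue, had 426, 444, 598 and 534 CPM in FAP DKO and 505, 544, 646 and 523 CPM in Misc DKO. The WT values were 114, 113, 90.2 and 107 CPM in FAP and 463, 425, 378 and 405 CPM in Misc. The populations overlapped in DKO (log2 -0.15 ± 0.13, adjusted p = 0.453) and were far apart in WT (-1.98 ± 0.14, adjusted p = 2.19e-11), with a difference of differences of 1.83 ± 0.19 (adjusted p = 3.18e-06). Col8a2, its partner chain, was narrowed as well, at -2.13 ± 0.20 in DKO and -4.10 ± 0.21 in WT (adjusted p = 0.000361).

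Of 14 small leucine-rich proteoglycans tested, 9 were higher in Misc DKO and 1 (Podn) in FAP DKO, with a median of -1.24. Chad, encoding chondroadherin, had 12.2 to 24.3 CPM in FAP DKO and 693 to 1249 CPM in Misc DKO (log2 -5.75 ± 0.35, adjusted p = 1.44e-09). Aspn passed the difference of differences, and 6 members did with the block. Among 28 elastic fibre genes and glycoproteins, 12 were higher in FAP DKO and 9 in Misc DKO, with a median of 0.21. Efemp1, a fibulin of elastic tissue, had 400.0, 291, 259.6 and 314 CPM in FAP DKO and 30.7, 35.8, 27.4 and 24.9 CPM in Misc DKO (log2 3.41 ± 0.25, adjusted p = 6.38e-09). Mfap4, which organises elastic fibres, was narrowed, at 243 to 373 CPM in FAP DKO and 681 to 863 CPM in Misc DKO. Levels were 124 to 148 CPM in FAP WT and 1051 to 1355 CPM in Misc WT (difference of differences, adjusted p = 0.00155). In all, 6 of the 28 were narrowed and 1 widened. The 7 that passed were 13 with the block, 3 without both DKO libraries of number 3, and 4 without FAP DKO 3, FAP WT 2, Misc DKO 2 or Misc WT 3.

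Of 19 matricellular genes tested, 12 were higher in Misc DKO and 2 (Thbs3 and Nov) in FAP DKO, with a median of -1.56 and of -1.54 in WT. The difference of differences passed for 7 members, 6 of them narrowed, and for 12 with the block. Spp1, encoding osteopontin, stood at 0.49 to 1.96 CPM in FAP DKO and 19.4 to 30.6 CPM in Misc DKO (log2 -4.69 ± 0.29, adjusted p = 1.15e-11). Of 29 collagen modification and crosslinking genes, 6 were higher in FAP DKO and 14 in Misc DKO, with a median of -0.23. The difference of differences passed for 4 (11 with the block, 2 to 6 in the other fits without it). Lox, the main collagen crosslinking oxidase, had 422, 476, 461 and 459 CPM in FAP DKO and 1363, 1399, 1286 and 1818 CPM in Misc DKO. WT muscle had 317, 356, 369.7 and 349 CPM in FAP and 2258, 2404, 2511 and 2573 CPM in Misc, so that every FAP DKO library lay above the FAP WT libraries and every Misc DKO library below the Misc WT libraries (difference of differences 1.12 ± 0.22, adjusted p = 0.00436). Leprel1, a collagen prolyl hydroxylase gene, was narrowed by 1.77 ± 0.19 (adjusted p = 5.46e-06).

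Of 35 matrix proteases and inhibitors, 12 were higher in FAP DKO and 11 in Misc DKO, with a median of 0.30, and 3 were narrowed (11 passed the difference of differences with the block). Mmp3, the stromelysin of fibroblasts, had 106, 174, 88.7 and 138 CPM in FAP DKO and 12.9, 33, 27.7 and 29.5 CPM in Misc DKO (log2 2.29 ± 0.40, adjusted p = 0.000393). Adamts3, which cleaves the amino propeptide of procollagen, was narrowed on the Misc side, at 20.9 to 29.8 CPM in FAP DKO and 133 to 151 CPM in Misc DKO. FAP WT had 10.9 to 17.5 CPM and Misc WT had 160.0 to 197 CPM (difference of differences 1.15 ± 0.17, adjusted p = 0.000248). Of 15 contractile genes of myofibroblasts, 7 were higher in Misc DKO and 1 (Myh10) in FAP DKO, with a median of -0.88. Acta2, smooth muscle actin, had 16.1, 7.05, 4.36 and 3.92 CPM in FAP DKO and 68.5, 42, 45.1 and 30.2 CPM in Misc DKO (log2 -2.54 ± 0.42, adjusted p = 0.000244). Actn1, an actin crosslinker, was narrowed by 0.94 ± 0.13 (adjusted p = 0.000125), with 50.8 to 61.9 CPM in FAP DKO and 146 to 150.0 CPM in Misc DKO, against 25.6 to 31.7 CPM in FAP WT and 144 to 152 CPM in Misc WT. The list had 2 members that passed the difference of differences, or 7 with the block and 1 to 4 in the other fits without it.

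**Figure D5:**
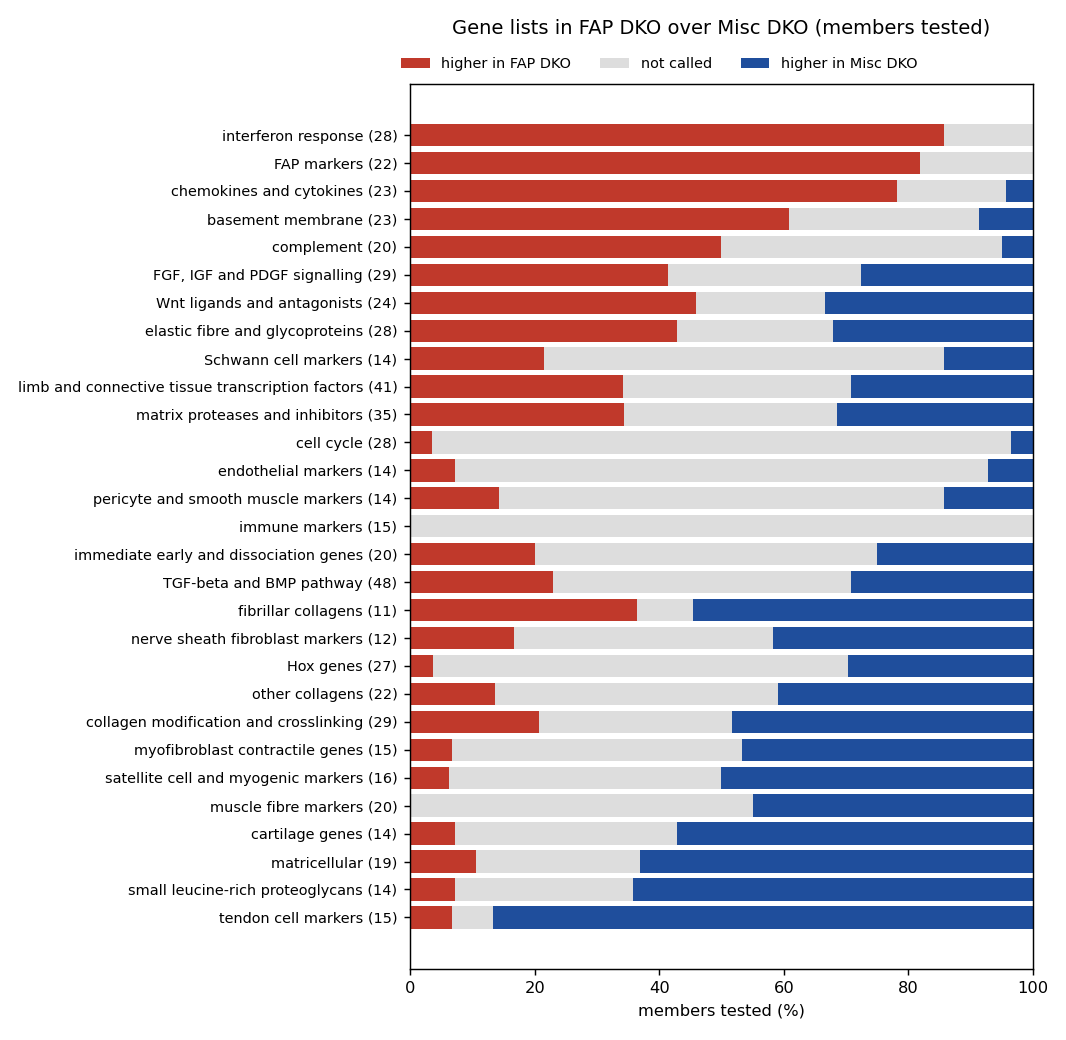
Share of the tested members of each gene list with at least 10 of them that were higher in FAP DKO, not called, or higher in Misc DKO, in percent; over all 14179 genes 16.0% were higher in FAP DKO and 13.7% in Misc DKO. Interferon, FAP marker and chemokine lists lie mostly on the FAP side, and tendon, proteoglycan and matricellular lists mostly on the Misc side.

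Among secreted signals, 48 genes of the TGF-beta and BMP pathway were tested; 11 were higher in FAP DKO and 14 in Misc DKO, with a median of -0.06. Gdf10, a BMP-family ligand gene, had 127, 155, 164 and 103 CPM in FAP DKO and 10.2, 10.9, 6.71 and 6.6 CPM in Misc DKO (log2 3.99 ± 0.35, adjusted p = 1.88e-07). Fst, encoding the activin and myostatin inhibitor follistatin, had 324, 270.3, 312 and 308 CPM in FAP DKO and 51.1, 52.4, 49.5 and 46.6 CPM in Misc DKO (log2 2.60 ± 0.28, adjusted p = 1.52e-06). Both stood on the side opposite to Mstn, which was high in Misc. Of the 48, 10 passed the difference of differences, 7 of them narrowed, or 20 with the block. The 10 were 5 without both DKO libraries of number 3, all of number 1 or Misc WT 1, and 6 without Misc DKO 4, Misc WT 2 or Misc WT 4.

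Of 24 Wnt ligands and antagonists, 11 were higher in FAP DKO and 8 in Misc DKO, and the median absolute difference was 2.05 on the log2 scale. Wnt2 had 15.4, 12.1, 6.39 and 12.8 CPM in FAP DKO and 0.249, 0.239, 0.959 and 0.518 CPM in Misc DKO (log2 4.53 ± 0.44, adjusted p = 3.68e-08). Wif1, a secreted Wnt inhibitor, had 9.61, 3.29, 3.48 and 2.94 CPM in FAP DKO and 369.5, 225, 209.7 and 384 CPM in Misc DKO (log2 -5.90 ± 0.51, adjusted p = 2.46e-07). Wnt5a, a ligand of the non-canonical branch, was narrowed, with 28.8 to 52.8 CPM in FAP DKO and 37.3 to 49.4 CPM in Misc DKO. The WT levels were 54.3 to 78.9 CPM in FAP and 26.7 to 30.6 CPM in Misc (difference of differences -1.20 ± 0.24, adjusted p = 0.00712, and 0.0587 without all libraries of number 1). For 5 members the difference of differences passed, or for 11 with the block, among them Wnt2 (-3.41, adjusted p = 0.0136). In the other fits without a block it passed for 1 to 8 members, and 14 to 20 were called in DKO. Of 29 FGF, IGF and PDGF signalling genes, 12 were higher in FAP DKO and 8 in Misc DKO, with a median of 0.25. The gene of the mesenchymal growth factor Fgf10 stood at 10.7 to 14.6 CPM in FAP DKO and 1.17 to 1.99 CPM in Misc DKO (log2 2.98 ± 0.24, adjusted p = 4.1e-10), and Pdgfa, a ligand of the FAP receptor, at 2.65 to 4.66 CPM in FAP DKO and 26.6 to 45.8 CPM in Misc DKO (log2 -3.29 ± 0.18, adjusted p = 6.09e-13).

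Immune signals lay mainly on the FAP side. Of 23 chemokines and cytokines tested, 18 were higher in FAP DKO and 1 (Il34) in Misc DKO, with a median of 1.48. Ccl8, a chemokine for monocytes, had 9.7, 8.62, 5.23 and 9.9 CPM in FAP DKO and 1.12, 2.04, 0.479 and 1.17 CPM in Misc DKO (log2 2.79 ± 0.36, adjusted p = 1.36e-06). Cxcl9, a chemokine for T cells, had 41, 38.2, 28 and 38.4 CPM in FAP DKO and 12.3, 6.71, 6.59 and 5.96 CPM in Misc DKO (log2 2.20 ± 0.53, adjusted p = 0.00505). The B cell chemokine Cxcl13 had 7.37, 2.19, 10.7 and 4.9 CPM in FAP DKO and no count in any Misc DKO library. Among the 23, 1 passed the difference of differences, or 6 with the block and 0 to 3 in the other fits without it.

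Of 20 complement genes, 10 were higher in FAP DKO and 1 (Cd59a) in Misc DKO, with a median of 1.75. Cfb, factor B of the alternative pathway, had 210.0, 273, 213 and 216 CPM in FAP DKO and 12.4, 12.1, 7.55 and 13.5 CPM in Misc DKO (log2 4.32 ± 0.35, adjusted p = 9.31e-08). Cd55, an inhibitor of complement on the cell surface, had 253, 178, 234 and 234 CPM in FAP DKO and 15.9, 16.3, 18.1 and 11.7 CPM in Misc DKO (log2 3.86 ± 0.27, adjusted p = 4.43e-09). Of the 20, 2 members passed the difference of differences, Masp1 among them, and 6 passed with the block. Of 28 interferon response genes, 24 were higher in FAP DKO and 0 in Misc DKO, with a median of 1.35 and of 1.25 in WT. Ifit1, an antiviral protein gene, had 17.7, 27.3, 10.4 and 20.9 CPM in FAP DKO and 4.85, 6.83, 2.16 and 4.01 CPM in Misc DKO (log2 2.07 ± 0.48, adjusted p = 0.00333). For this list 0 members passed the difference of differences in edgeR (2 at an unadjusted p below 0.05, 0 in DESeq2), and 1 (Rsad2) with the block.

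Of 41 transcription factors of limb and connective tissue, 14 were higher in FAP DKO and 12 in Misc DKO, with a median of 0.28. Osr1, a marker of FAP precursors in the developing mouse limb, had 34.8, 35.7, 31.8 and 28.5 CPM in FAP DKO and 6.35, 8.74, 4.79 and 4.66 CPM in Misc DKO (log2 2.40 ± 0.26, adjusted p = 4.16e-07). Six2 had 1.12, 1.25, 1.45 and 1.96 CPM in FAP DKO and 32.9, 25.5, 32.7 and 33.5 CPM in Misc DKO (log2 -4.40 ± 0.17, adjusted p = 6.19e-16), with a WT difference of -4.40 ± 0.16. Alx4, a limb patterning gene, was narrowed by 1.09 ± 0.25 (adjusted p = 0.0172), with 5.32 to 5.88 CPM in FAP DKO and 15 to 19.4 CPM in Misc DKO. Of 27 Hox genes tested, 8 were higher in Misc DKO and 1 (Hoxa11) in FAP DKO, with a median of -0.37, and 0 passed the difference of differences in edgeR (2 at an unadjusted p below 0.05, 0 in DESeq2, 3 with the block). Hoxd10, a gene of the distal limb, stood at 0.0933 to 0.294 CPM in FAP DKO and 1.49 to 2.72 CPM in Misc DKO (log2 -3.68 ± 0.48, adjusted p = 1.36e-06).

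Of 28 cell cycle genes, 1 (Ccnd1) was higher in FAP DKO and 1 (Rrm2) in Misc DKO, against 7 and 3 in WT, and the median in DKO was -0.09. Over all genes tested, 16.0% were higher in FAP and 13.7% in Misc in DKO, and 19.3% and 17.6% in WT. The difference of differences passed for 2 of the 28, both narrowed (4 with the block, 0 to 4 in the other fits without it). The call of Ccnd1 had an adjusted p of 0.0532 without FAP DKO 1. Rrm2, a subunit of the enzyme that makes deoxynucleotides, had 6.71, 8.62, 6.1 and 7.35 CPM in FAP DKO and 9.71, 12.2, 12.8 and 15.4 CPM in Misc DKO (log2 -0.81 ± 0.16, adjusted p = 0.000299). Of 20 immediate early genes, which respond to cell dissociation among other stimuli, 4 were higher in FAP DKO and 5 in Misc DKO, with a median of -0.17. Fosl1 had 7.18 to 16.1 CPM in FAP DKO and 0.479 to 2.51 CPM in Misc DKO (log2 2.56 ± 0.36, adjusted p = 8.28e-06), whereas Egr2 had 245 to 276 CPM in FAP DKO and 352 to 426 CPM in Misc DKO (log2 -0.64 ± 0.10, adjusted p = 8.86e-06).

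Markers of other cell types were read in the same libraries. Of 16 satellite cell and myogenic markers, 8 were higher in Misc DKO and 1 (Des) in FAP DKO. The number called fell to 4 without FAP DKO 4, Misc DKO 2 or both DKO libraries of number 3, and to 5 without FAP DKO 1, 2 or 3. It was 4 with the replicate block and 3 with the DKO groups alone in the fit. Those fits had no SMP libraries and were filtered again, so fewer calls there can also mean fewer members tested. In the main fit the filter asked for enough counts in only 2 libraries, the size of the smallest group. Pax7, the satellite cell transcription factor, had 0.0933, 0, 0.194 and 0.098 CPM in FAP DKO and 0.622, 2.63, 1.32 and 0.259 CPM in Misc DKO (log2 -3.39 ± 1.08, adjusted p = 0.0254; 0.0541 to 0.1 without FAP DKO 1, 2 or 4 or Misc DKO 2, and 0.0745 without both DKO libraries of number 3). Misc DKO 2 was highest for Pax7, Myf5 and Myod1. Of 20 muscle fibre markers, 9 were higher in Misc DKO and 0 in FAP DKO (5 without both DKO libraries of number 3), with summed levels of 43.7 to 68.5 CPM in FAP DKO and 69 to 123 CPM in Misc DKO. Myh4, a fast myosin, had 1.57 to 2.52 CPM in FAP DKO and 3.88 to 13.5 CPM in Misc DKO (log2 -2.08 ± 0.43, adjusted p = 0.001). The part of muscle RNA in other results was not tested; Misc DKO had the higher sum.

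Of 15 immune markers tested, 0 were called in either direction by edgeR in DKO (1 at an unadjusted p below 0.05, 0 in DESeq2, 1 with the block), with a median log2 difference of 1.90. The 19 immune markers in the table summed to 28.6 to 123 CPM in FAP DKO, highest in FAP DKO 1, and 19.9 to 39.8 CPM in Misc DKO. Ptprc, which encodes the leukocyte antigen CD45, had 1.77 CPM in FAP DKO 1, 0.157 CPM in FAP DKO 2 and none in the other FAP DKO libraries, and 0 to 0.24 CPM in Misc DKO. The 14 endothelial markers summed to 148.6 to 271 CPM in FAP DKO and 61.4 to 102 CPM in Misc DKO; Tek, the angiopoietin receptor, was higher in FAP DKO (110.1 to 166 CPM against 19.2 to 27.6 CPM in Misc DKO, adjusted p = 1.63e-12) and Erg in Misc DKO, and the defining gene Cdh5 stood at 2.45 to 14.5 CPM in FAP DKO and 5.51 to 9.08 CPM in Misc DKO. The 14 Schwann cell markers tested had 3 calls toward FAP and 2 toward Misc, the 12 nerve sheath markers 2 and 5, and the 14 pericyte and smooth muscle markers 2 and 2. Over all genes tested, 16.0% were higher in FAP DKO and 13.7% in Misc DKO. The Schwann cell and pericyte counts lie near those shares and are not read as a result about these cells. Abcc9, a channel subunit of pericytes, had 42.5, 32.3, 28.2 and 17.8 CPM in FAP DKO and 2.74, 1.68, 1.92 and 2.07 CPM in Misc DKO (log2 3.84 ± 0.36, adjusted p = 1.51e-07), while Rgs5, a defining pericyte gene, stood at 0.784 to 6.9 CPM in FAP DKO and 1.04 to 2.74 CPM in Misc DKO. Of 6 adipocyte markers tested, 3 (Pparg, Cebpa and Lpl) were higher in FAP DKO (Lpl with an adjusted p of 0.0585 without all libraries of number 1), and Adipoq, a marker of mature adipocytes, did not exceed 0.47 CPM in any library. The erythroid gene Hbb-bs was at 0 in all 16 libraries, and Alas2, the 1 erythroid marker tested, was not called (adjusted p = 0.769).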

How the data were processed

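RNA from populations of mouse hindlimb muscle that the sample labels call FAP, Misc and SMP was read on an Illumina HiSeq 2500 as paired reads and mapped to mm10 with RefSeq annotation by OSA, per the series design text; the submitters' processing notes also name DESeq2. One table of raw counts for all libraries was deposited by the authors; no source used here says whether strand was used in counting. Of 24393 genes, 24312 matched RefSeq GRCm38.p6 identifiers, 52 blank or date-like symbols were restored from them, and 5031 had no count. No 2 libraries were identical.

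Genes passed filterByExpr (minimum count 10, minimum total 15), which left 14179. Counts were scaled by TMM, CPM values use the scaled totals, and a robust quasi-likelihood model of all 20 libraries in 6 groups was fitted in edgeR 4.0.16 (R 4.3.3, limma 3.58.1). P-values were adjusted by Benjamini-Hochberg over the genes of 1 comparison, and standard errors were taken from the log2 change and the F statistic (|log2|/√F). Tested on simulated data, the fit found 88% of 100 genes with a planted 2-fold change in the DKO comparison and 99% of 100 with a 4-fold one, and called 14 unchanged genes (13666 tested); for the difference of differences it found 79% and 99% and called 8 (13720 tested).

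The comparison and the gene lists were chosen with earlier results of these data known. Named genes were the 12 largest called differences each way in DKO (mean of at least 5 CPM over the 8 DKO libraries, groups not overlapping, predicted genes left out), the 10 largest narrowed and widened and 10 turned genes (at least 5 CPM over the 16 FAP and Misc libraries), up to 4 members of each list called in DKO and up to 3 in the difference of differences, the most abundant member where none was called, and a fixed set with the 4 cell markers. Sox5, Tppp3, Myf5 and other list members named to complete a count, and the defining markers of other cells, were chosen after their values were seen. Some genes that the rule named are not reported here.

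Libraries of equal replicate number deviated together from their group means across genes (Pearson's r was 0.181 to 0.343 for the 4 DKO pairs and 0.175 to 0.234 for the 4 WT pairs; libraries with unequal numbers gave -0.184 to 0.063). In the replicate block, and only there, the numbers were therefore treated as pairing each FAP library with a Misc library, which no label states. The main fit used no pairing. Alternatives were DESeq2 1.42.0 (size factors, and the Wald test), no filter, only the groups compared, the replicate block, counts thinned to 6739010 and each library left out. The fits with only the groups compared, with the block and with thinned counts left out the SMP libraries. Genes were filtered and spread was estimated again in them, so a list can have fewer members tested there. Leaving out the DKO libraries of number 3 or all libraries of number 1 was chosen after seeing the data.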

Additional observations from a re-analysis of the deposited data

Results flagged for a closer look

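In 12 of 152 groups of 4 libraries examined, 1 library lay far from the other 3. Chance gives about 1 in 20 for independent groups. These groups reuse the same libraries over related genes, so the count cannot be read against that rate. Misc DKO 2 stood apart for Mrgprg (0.239 CPM) and Wnt10b (0.359 CPM), FAP DKO 3 for Lpar3 (0 CPM) and Kcnab1 (2.32 CPM), and Misc DKO 4 for Thbs4 (39112 CPM) and Fam20a (44.5 CPM). Misc DKO 1 stood apart for Cd248 (20.2 CPM) and FAP DKO 2 for Scx (4.7 CPM). The DKO libraries of number 3 stood apart for Xist (0.36 CPM in Misc DKO 3) and Ddx3y (144 CPM in FAP DKO 3 and 89.6 CPM in Misc DKO 3), and FAP DKO 1 for the summed immune markers (123 CPM).

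The log2 difference of FAP over Misc in DKO minus that in WT passed the edgeR test for the 31 genes below, which were named for the size of their differences; members of gene lists that passed are given with their lists above. Narrowed genes on the FAP side were Pi16 (-3.39), Islr2 (-3.06), Fmo2 (-2.76) and Opcml (-2.13). Narrowed genes on the Misc side were Ddah1 (2.71), Tnc (2.58), C1qtnf3 (2.55), Crtac1 (2.41), Thbs4 (2.29), Bmpr1b (2.23) and Ptx4 (1.04). Widened toward Misc in DKO were Kcnab1 (-2.28), Prkg2 (-2.16), Tmem200c (-2.04), Postn (-1.76), Rapgef4 (-1.61), Ntm (-1.56), Asphd2 (-1.56) and Cttnbp2 (-1.43), and toward FAP Gdf6 (1.94) and Sned1 (1.38). Turned genes were Aspn (-2.37), Npr3 (1.72), Olfml2a (-1.58), Tmem158 (-1.57), D17H6S56E-5 (-1.29), Fam20a (-1.08), Myadm (-1.02), Pdxk (0.98), Rnf144a (0.93) and Pitpnm2 (-0.75).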

How the results depend on the processing

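Of the results over all genes, the DKO count stayed between 3465 and 4305 in the fits without a block, against 4213 as reported, and was 5415 with it. The median log2 difference over all genes moved by less than 0.1 in each. The DESeq2 Wald test called 4305 genes in DKO and 547 in the difference of differences, 395 of them among the 396. With the replicate block the difference of differences gave 1246 genes, 781 narrowed, 395 widened and 70 turned. With the same 16 libraries and no block it gave 590 genes, 156 of them widened. Without all libraries of number 1 it gave 246 genes, 166 narrowed and 10 turned. Each library of the groups compared left out in turn gave 3707 to 4155 genes in DKO, 4577 to 4905 in WT and 279 to 379 in the difference of differences, with 198 to 263 narrowed, 64 to 98 widened and 7 to 18 turned. The widened count was 64 without FAP WT 4 and 65 without FAP DKO 4 or Misc DKO 4. The turned count was 7 without FAP WT 1, 11 without FAP DKO 4, Misc WT 2 or Misc WT 4, and 12 without FAP WT 3 or Misc WT 3. Without both DKO libraries of number 3, 9 counts of list members moved by more than 1.5 times and 53 did not; of the genes named by rule, 5 DKO calls and 9 of the difference of differences were lost and 2 were gained. The cause of these shifts was not tested. No reported direction was reversed.

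Library depth limits what can be said of genes near 0 in a group. No fold is given for Cxcl13 and Ibsp, which had no count in a whole DKO group, and the fitted folds of Wnt10b and Matn3 rest on few counts in the lower group. The groups of 4 libraries carry no stated link to single animals, and the 20 libraries share 1 estimate of spread per gene.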
